A study of Rattus norvegicus with 138 samples.

Results

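Serum miRNAs of rats carrying lead (Pb) pellets were compared with those of rats carrying tantalum (Ta) pellets at 1, 3 and 12 mo after implantation, at each month and averaged over these months. The members were the columns of the miRNA count matrix whose labels name Pb or Ta and one of these months: 24 libraries of 138 in the series, 4 for each metal and month, with the 6 mo libraries left out. All were sera of male Sprague-Dawley rats, implanted at 3 mo of age. Each rat carried 4 pellets of its metal, 2 in each gastrocnemius (calf) muscle, and a pellet was 1 mm wide and 2 mm long. Ta, an inert metal in muscle, was the control for the surgery, so both groups had the same operation and the same number of foreign bodies. The series text gives 8 rats per group. The labels number the libraries of a group from 1 to 4 without saying which rats they came from or whether these were the same rats at each month, so the p-values measure the spread between these samples, which may be partly technical. Of the other metals (W, Ni, Co, Fe, Cu, Al and DU, depleted uranium), 80 libraries of the same months were used to place Pb and Ta; Ni had none at 12 mo.

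MicroRNAs are short RNAs that pair through their seed, the bases near the 5′ end, with messenger RNAs and lower their output. Cells release them into blood in vesicles and protein complexes, where they are protected from RNases, and injured tissue leaks its own miRNAs, so that muscle miR-1 and miR-206 and liver miR-122 are used as serum markers of damage. Lead is a toxic metal that takes the place of calcium and zinc in proteins, blocks haem synthesis in red cell precursors, is stored in bone, and harms kidney and brain. In serum, more cells releasing a miRNA and more miRNA released per cell cannot be told apart.

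The results turned on 3 groups of sequences. The first was the miR-30 family, which holds the miRNA called at 1 mo. The second was the muscle miRNAs miR-1-3p, miR-1b and miR-206-3p. For these, the highest 3 of the Pb and Ta libraries at 3 mo were Pb libraries. The third was single miRNAs that separated Pb from Ta at 1 or 12 mo. The mature rat sequences are from RefSeq (GRCr8), which matched 434 of the 471 miRNAs in the table by name. Capitals mark the seed, bases 2 to 8, and all are written 5′ to 3′.
miR-30a-5p: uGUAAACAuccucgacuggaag
miR-30c-5p: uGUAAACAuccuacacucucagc
miR-30e-5p: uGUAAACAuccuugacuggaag
miR-1-3p: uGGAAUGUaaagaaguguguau
miR-1b: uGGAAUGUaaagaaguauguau
miR-206-3p: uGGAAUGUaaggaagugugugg
miR-423-5p: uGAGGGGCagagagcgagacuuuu
miR-140-3p: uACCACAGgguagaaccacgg
miR-702-3p: uGCCCACCcuuuaccccacucca
The 3 miR-30 members shown share the seed GUAAACA, and miR-1-3p, miR-1b and miR-206-3p share GGAAUGU. miR-30a-5p and miR-30e-5p differ at 1 base, as do miR-1-3p and miR-1b, so how reads were split within each of these pairs is uncertain. miR-30d-5p, miR-423-3p and miR-378b are the other miRNAs described at length.

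One of the 24 libraries, Ta replicate 3 at 3 mo, held 1645 counts and 36 detected miRNAs, and its most abundant miRNA was miR-451-5p, a red blood cell miRNA. It was left out of the main comparisons with every other library of the series under 20000 counts (6 in all), and the counts of calls and the values that moved most are also given with these libraries kept. The 23 remaining totals ran from 70454 to 3743726 counts. At 1 mo the Pb libraries were deeper, with a median of 1604864 counts against 416797.5 for Ta. The medians were 313187 for Pb and 343321 for Ta at 3 mo, and 572062 and 617228.5 at 12 mo. Depth moved with the metal at 1 mo, and its part in the differences there was not tested. Few miRNAs took much of each library: the most abundant one, often miR-191a-5p, miR-10a-5p or miR-122-5p, held 12.3% to 58.5% of the counts. The liver miRNA miR-122-5p and the red cell miRNA miR-451-5p were counted in 12 of 12 Pb and 11 of 11 Ta libraries.

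A Pb library detected 212 ± 47.2 miRNAs with 1 or more counts at 1 mo (SD, n = 4) and a Ta library 182 ± 36.6 (n = 4), a difference of 30.5 that was within the spread (two-sided exact permutation p = 0.314). At 3 mo the numbers were 119 ± 51.6 (n = 4) and 139 ± 57.1 (n = 3), 20.1 fewer in Pb (exact p = 0.657). At 12 mo they were 182.5 ± 47.1 (n = 4) and 165.5 ± 39.9 (n = 4), 17 more in Pb (exact p = 0.6). Thinned to the smallest library of the month, the difference at 1 mo was 22.25 (exact p = 0.429). With the near-empty Ta library kept, the 3 mo difference changed sign, to 5.75 more in Pb (exact p = 0.943). A red cell index, the log2 ratio of miR-451-5p to miR-23a-3p, ran from -2.99 to 0.06 in Pb and from -3.84 to 0.34 in Ta at 1 mo, and from -3.12 to -1.17 and from -2.77 to -0.28 at 12 mo. At 3 mo it ran from 0.12 to 8.16 in Pb and from 0.87 to 3.09 in Ta; the 8.16 was Pb replicate 3, which had 714 counts of miR-451-5p and 2 of miR-23a-3p.

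**Figure D1:**
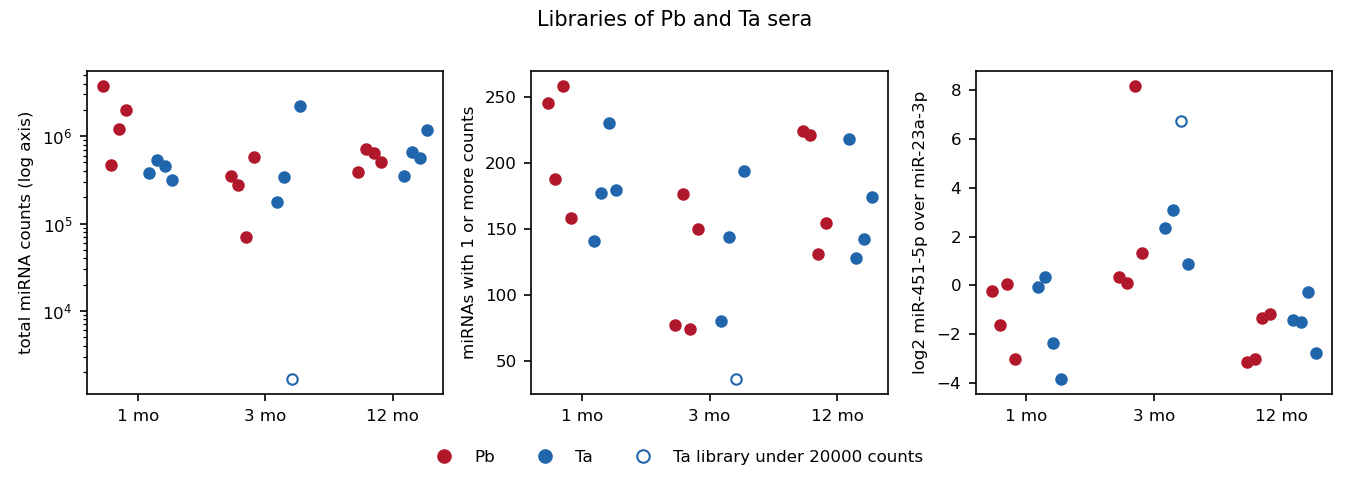
Each point is 1 library of Pb (red) or Ta (blue) serum: total miRNA counts on a log axis, number of miRNAs with 1 or more counts, and the red cell index (log2 miR-451-5p over miR-23a-3p). The open point is the Ta library with 1645 counts; the Pb library with an index of 8.16 stands apart from the other 3 of its group, and the groups overlap in all 3 measures at each month.

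Few miRNAs separated Pb from Ta in edgeR, which called none at more than 1 month. The threshold for a call was an adjusted p of 0.05 in edgeR's quasi-likelihood test, with Benjamini-Hochberg adjustment over all miRNAs tested in the comparison. At 1 mo, 1 of 289 miRNAs was called (0.346%), miR-30d-5p, and it was higher in Pb. At 3 mo, 0 of 180 were called by edgeR (0%), 3 had an unadjusted p under 0.05 (1.67%), 2 higher (1.11%) and 1 lower (0.556%), and DESeq2 called 5. At 12 mo, 3 of 242 were called (1.24%), miR-423-3p, miR-140-3p and miR-378b, all higher in Pb. Averaged over the months, 0 of 295 were called by edgeR (0%), 25 had an unadjusted p under 0.05 (8.47%), and DESeq2 called 30. DESeq2 called 11 at 1 mo and 24 at 12 mo, among them the 1 and the 3 of edgeR.

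The share of tested miRNAs that were higher in Pb by any amount was 52.9% at 1 mo, 41.7% at 3 mo and 57.4% at 12 mo. These shares depended on the scaling of the libraries. DESeq2 size factors moved the median log2 difference of all miRNAs by -0.23 at 1 mo, -0.20 at 3 mo, -0.34 at 12 mo and -0.02 in the average, and the shares to 47.4%, 35.6% and 49.2%. Small differences should be read against those shifts.

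**Figure D2:**
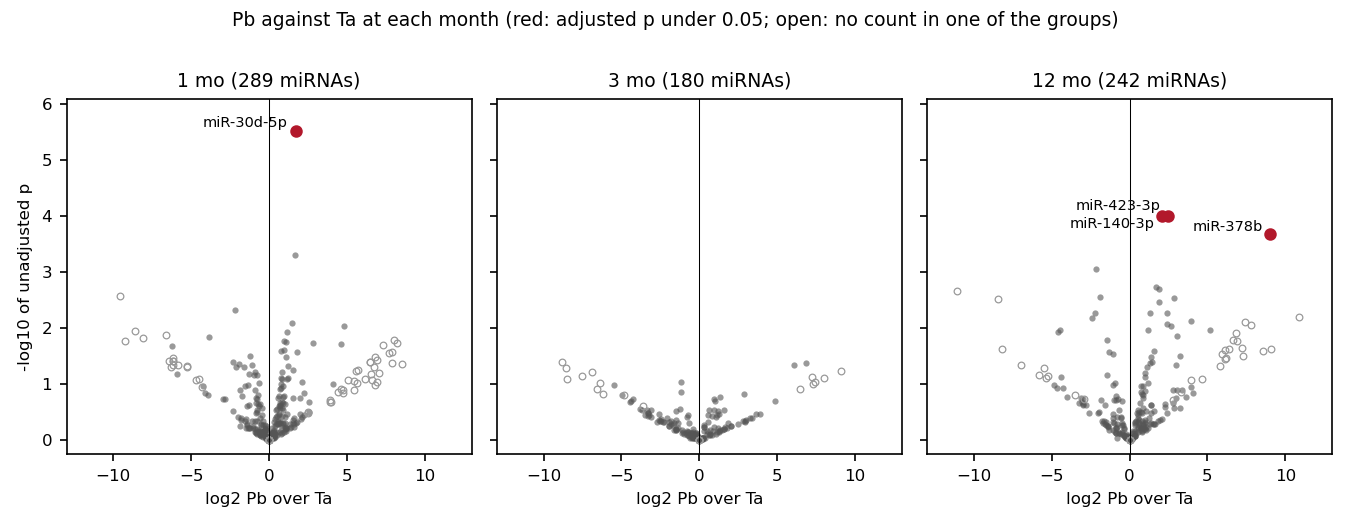
Each point is 1 miRNA at 1, 3 or 12 mo: the fitted log2 difference Pb over Ta against the -log10 of the unadjusted edgeR p. Red points are the called miRNAs, 1 at 1 mo, 0 at 3 mo and 3 at 12 mo; open points had no count in one of the groups, so that their horizontal position is set by the fit and is no measured fold.

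At 1 mo the Pb sera held more miR-30d-5p, a member of the miR-30 family, which is widely expressed and abundant in kidney. miR-30d-5p was at 5014, 4586, 4430 and 4329 CPM (counts scaled to a library of 1000000 with the TMM sizes of that month) in the Pb libraries and at 1592, 935, 1242 and 1830 in the Ta libraries. Every Pb library was above every Ta library. The means were 4590 ± 302 CPM (SD, n = 4) and 1400 ± 393 (n = 4), and the log2 difference was 1.71 ± 0.31 (SE), 3.28-fold, with an edgeR adjusted p of 0.000855. The call held with any 1 of the 8 libraries left out (adjusted p 0.0018 to 0.0096) and with all libraries kept (0.0108). It was lost without a low-count filter (adjusted p = 0.174) and with only Pb and Ta fitted (0.321), where the log2 difference was 1.53 and 1.64.

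miR-30a-5p had 3081, 4124, 2053 and 2446 CPM in Pb and 517, 807, 837 and 1510 in Ta, again without overlap. Its log2 difference was 1.67 ± 0.44 with an edgeR adjusted p of 0.0725, which missed the threshold, and 0.0656 with all libraries kept. miR-30e-5p had a log2 difference of 1.13 ± 0.42 and miR-30c-5p of 0.79 ± 0.47, with adjusted p of 0.297 and 0.38. Of the 4 family members in the table, 1 was called at 1 mo by edgeR (DESeq2 called miR-30a-5p too, adjusted p = 0.0173), 4 were higher in Pb by fitted value under both scalings, and 3 had an unadjusted p under 0.05. Their median log2 difference was 1.4, against 0.13 over all 289 miRNAs tested. Of those 289, 16.6% had an unadjusted p under 0.05, 9% higher and 7.61% lower in Pb.

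At 1 mo Ta had the lowest mean of the 9 metals for miR-30d-5p and Pb the highest. All 4 Ta libraries lay below the lowest of the 27 libraries of the other metals, whose median was 3272 CPM and whose range was 2016 to 5604 CPM, and 0 of 4 Pb libraries lay above it. The Ta libraries had no weight in the comparison with the mean of the other metals, but stayed in the fit. There the Pb difference in miR-30d-5p was 0.47 ± 0.22 (log2) with an edgeR adjusted p of 0.283. For miR-30a-5p, Ta was again lowest and Pb highest of 9, 3 of 4 Ta libraries lay below all libraries of the other metals, and Pb differed from the other metals by 0.59 ± 0.31 (adjusted p = 0.32). Both comparisons share the Pb libraries.

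The next smallest p among the miRNAs higher in Pb at 1 mo belonged to miR-423-5p, which is widely expressed and made from the same hairpin as miR-423-3p. It was at 23324, 50343, 16044 and 9020 CPM in Pb and at 4975, 14620, 6454 and 9741 in Ta. The highest 3 Pb libraries were above all Ta libraries, and the lowest was among them. The log2 difference from Ta was 1.46 ± 0.52 (edgeR adjusted p = 0.297). Against the other metals, with a median of 7123 CPM, it was 1.63 ± 0.34 with an adjusted p of 0.00817, 1 of 2 calls among 289 miRNAs in that comparison (0.692%). Pb had the highest mean of the 9 metals and 2 of its 4 libraries lay above all 27 libraries of the other metals. That call was lost without Pb replicate 2, the highest library, where the log2 difference was 1.02 and the adjusted p 0.242.

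**Figure D3:**
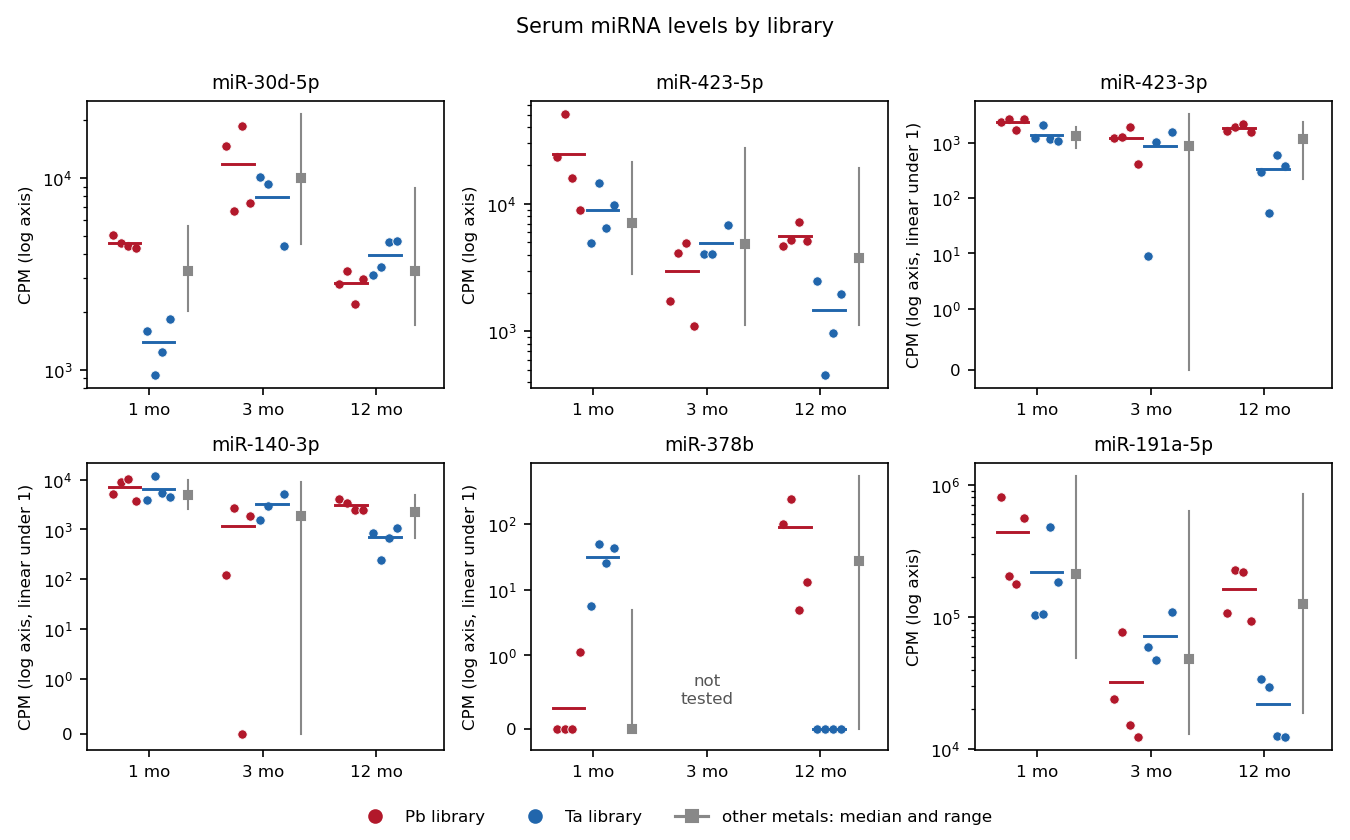
Levels of 6 miRNAs in CPM on log axes (linear under 1 CPM where a library had none): each point is 1 Pb (red) or Ta (blue) library, the short line is the group mean, and the grey square and bar are the median and the range over the libraries of the other metals at that month. CPM were scaled within each month. For miR-30d-5p at 1 mo the 4 Ta libraries sit below the grey range, and for miR-378b the Ta libraries lie above the grey range at 1 mo and all at 0 at 12 mo.

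miR-423-3p, the other arm, was at 2409, 2716, 1747 and 2694 CPM in Pb and at 1220, 2098, 1172 and 1104 in Ta at 1 mo. Its log2 difference was 0.77 ± 0.33 (edgeR adjusted p = 0.297), with 1 Ta library inside the Pb range. miR-383-5p was counted in 4 of 4 Pb libraries, at 25.1 to 272 CPM, and in 1 of 4 Ta libraries, at 20.1 CPM, with no overlap and an adjusted p of 0.297.

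Lower in Pb at 1 mo, without a call in the main comparison, were miR-126a-3p, the main miRNA of endothelium, and several miRNAs of few counts. miR-126a-3p was at 341, 667, 1367 and 193 CPM in Pb and at 794, 2860, 1091 and 7088 in Ta. The groups overlapped, and the log2 difference was -2.20 ± 0.73 (edgeR adjusted p = 0.297). Of the 7 alternative settings, 6 left miR-126a-3p uncalled and the remaining one called it. miR-122-3p, the passenger strand of the liver miRNA miR-122, had no count in the 4 Pb libraries and 278 and 14.5 CPM in 2 of the 4 Ta libraries. With a floor of 3 counts over the Pb group it was at least 146-fold lower in Pb, and at least 9.68-fold without Ta replicate 1, the library at 278 CPM. Its adjusted p was 0.258 in edgeR, while DESeq2 called it (1.7e-23); its guide strand miR-122-5p differed by -0.50 ± 0.75 (log2). miR-30d-3p was in 0 of 4 Pb and 3 of 4 Ta libraries, miR-450b-3p in 0 and 1, and miR-195-5p, of the miR-15/16 seed family, in 1 and 2. In all, 11 of 289 miRNAs had no overlap between the groups at 1 mo (3.81%), 8 higher (2.77%) and 3 lower (1.04%) in Pb.

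At 3 mo no miRNA passed the test, and the smallest p values among those higher in Pb belonged to muscle miRNAs. miR-1-3p, which promotes muscle differentiation and is made in heart and skeletal muscle, was at 9150, 0, 21288 and 14635 CPM in Pb and at 0, 32.8 and 251 CPM in the 3 Ta libraries. In Pb, 3 of 4 libraries stood above all Ta libraries, and replicate 2 had no count. The log2 difference was 6.88 ± 3.25, with an unadjusted edgeR p of 0.0413 and an adjusted p of 1. With all libraries kept it was 6.58 (adjusted p = 0.534), and of the alternatives tried only the fit without a low-count filter called it (adjusted p = 0.0428).

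miR-1b, 1 base from miR-1-3p, was at 5455, 279, 12103 and 10095 CPM in Pb and at 0, 60.2 and 249 in Ta. The groups did not overlap, by a margin of 279 against 249, and the log2 difference was 6.07 ± 2.92 with an edgeR adjusted p of 1. miR-206-3p, the member restricted to skeletal muscle, was at 4947, 250, 19352 and 15039 CPM in Pb and at 2744, 924 and 398 in Ta. Its groups overlapped, and its log2 difference was 2.87 ± 1.96 (adjusted p = 1).

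The 8 muscle miRNAs of the list (miR-1b is not on it) summed to 0.0246% to 4.17% of the counts of a Pb library at 3 mo (median 1.99%) and to 0.0782% to 0.347% of a Ta library (median 0.102%). miR-133a-5p, miR-208a-3p, miR-208b-3p and miR-499-5p had no count in either group, and miR-133a-3p and miR-133b-3p none in Ta. The 3 muscle miRNAs tested were higher in Pb by fitted value under both scalings, where 41.7% of all 180 miRNAs were. edgeR called 0 of them and DESeq2 called miR-133a-3p (adjusted p = 0.00295), which was counted in 1 Pb library only. For miR-1-3p, Ta had the lowest mean of the 9 metals and Pb the highest; the median over the 25 libraries of the other metals was 480 CPM, and their highest library was at 21044 CPM, between the highest Pb library and the rest. Pb differed from the other metals by 2.22 ± 1.43 (log2) in miR-1-3p, with an edgeR adjusted p of 0.704.

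The other miRNAs with small p at 3 mo were counted in 1 or 2 libraries: miR-429, an epithelial miRNA of the miR-200 family, in 2 of 4 Pb and 0 of 3 Ta, miR-133a-3p and miR-3068-5p in 1 and 0, miR-340-3p in 0 and 2, and miR-760-3p, miR-6328, miR-365-3p and miR-505-3p in 0 and 1. In all, 6 of 180 miRNAs had no overlap between the groups (3.33%), 2 higher (1.11%) and 4 lower (2.22%) in Pb. The near-empty Ta library moved the values of blood cell miRNAs. With it, miR-16-5p differed by -5.31 and miR-451-5p by -3.28 (log2, edgeR adjusted p = 0.511 each), and miR-146a-5p, of leukocytes, by -2.57 (0.794). Without it they differed by 0.04, -0.30 and -0.02. The Pb libraries were at 0, 1171, 1452 and 2390 CPM of miR-16-5p and the other 3 Ta libraries at 785, 555 and 2315.

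**Figure D4:**
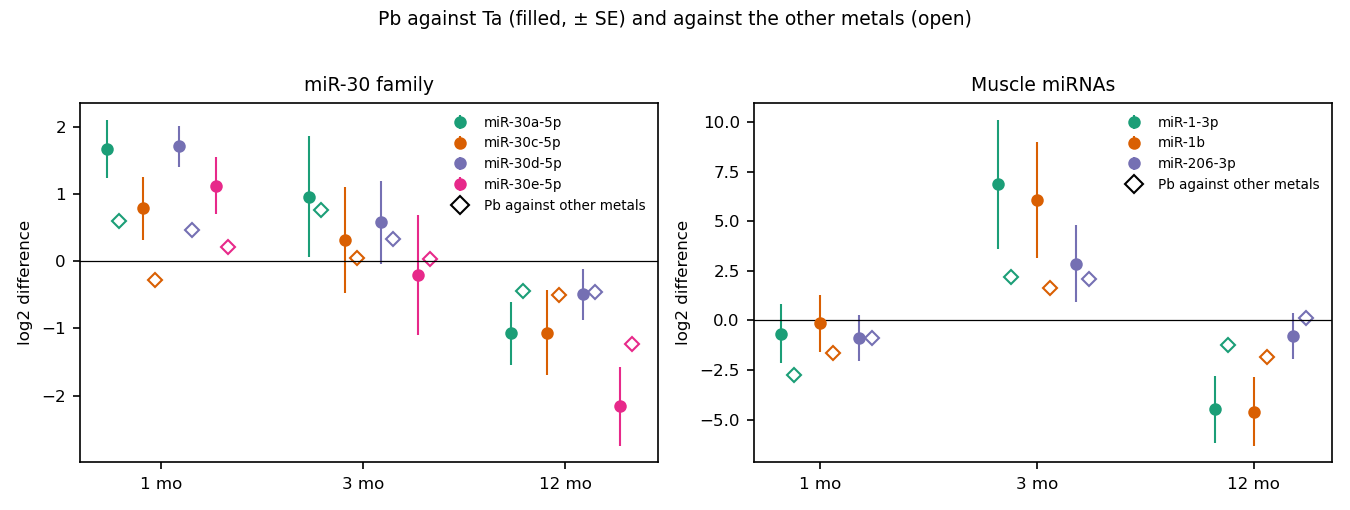
Fitted log2 differences of the miR-30 family (left) and of 3 muscle miRNAs (right) at 1, 3 and 12 mo: filled points with SE bars are Pb against Ta, open diamonds are Pb against the other metals. The 4 miR-30 members lie above 0 at 1 mo and below 0 at 12 mo against Ta, and the open diamonds lie nearer to 0 for miR-30a-5p, miR-30d-5p and miR-30e-5p in both months.

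At 12 mo the Pb sera held more miR-423-3p, miR-140-3p and miR-378b than the Ta sera. miR-423-3p was at 1642, 1958, 2258 and 1610 CPM in Pb and at 298, 54.6, 608 and 381 in Ta. The groups were far apart, with means of 1867 ± 304 CPM (SD, n = 4) and 335 ± 228 (n = 4), and the log2 difference was 2.48 ± 0.56 (edgeR adjusted p = 0.0118). miR-140-3p, made from a miRNA gene of cartilage, was at 4109, 3358, 2419 and 2436 CPM in Pb and at 857, 245, 663 and 1084 in Ta. These did not overlap either, and the log2 difference was 2.11 ± 0.48 (adjusted p = 0.0118). miR-378b was at 99.7, 244, 4.83 and 13.1 CPM in Pb and had no count in the 4 Ta libraries. Against a floor of 3 counts over the Ta group it was at least 107-fold higher in Pb (edgeR adjusted p = 0.0169). Without Pb replicate 2, the highest library, it was at least 46.3-fold higher. miR-378a-3p, a relative by name with far more counts, was at 9493 ± 10649 CPM in Pb (SD, n = 4) and 1795 ± 1314 in Ta (n = 4). At 1 mo miR-378a-3p was at 2155 ± 1495 in Pb and 3273 ± 1902 in Ta. How reads were split between miR-378a-3p and miR-378b was not tested.

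These 3 calls were near the threshold. With all libraries kept, which at 12 mo adds 1 tungsten library of 3789 counts, 0 miRNAs were called by edgeR, and the adjusted p were 0.0762, 0.0762 and 0.0527 for miR-423-3p, miR-140-3p and miR-378b, while their directions stayed. With only Pb and Ta fitted 0 were called, with 0.0834 for miR-423-3p and miR-140-3p, and miR-378b was not tested. Leaving out Pb replicate 2, Pb replicate 4 or Ta replicate 2 left 0 calls, with adjusted p of 0.0552, 0.124 and 0.0597 for miR-423-3p. Without Ta replicate 1 it was 0.0916, and the 2 calls then made were other ones, both lower in Pb: miR-30e-5p and miR-125b-5p (0.0426 each). Without Ta replicate 4 there were 3 calls, 2 of the 3 and miR-30e-5p, lower in Pb (0.027). miR-140-3p lost its call without those libraries and without Ta replicate 3 (0.0647), and miR-378b without Pb replicate 2 (0.0552), Pb replicate 4 (0.0636) and each Ta replicate (0.0564, 0.0597, 0.0647 and 0.0621).

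Ta was again at the end of the order of the metals. It had the lowest mean of the 8 metals at 12 mo for miR-423-3p, for which Pb had the highest, and for miR-140-3p, for which Pb was the next to highest. For miR-140-3p, 2 of 4 Ta libraries lay below all 23 libraries of the other metals, whose median was 2193 CPM. For miR-423-3p, 1 of 4 did. miR-378b was counted in 17 of those 23 libraries, in 0 of 3 W and 2 of 4 Co libraries. Co and W were also low. Their means were 383 and 502 CPM for miR-423-3p (Ta 335) and 954 and 1263 CPM for miR-140-3p (Ta 712). Al, Cu, DU and Fe had means of 1355 to 1628 CPM for miR-423-3p and 2156 to 3426 CPM for miR-140-3p. Against the mean of the other metals, Pb differed by 0.91 ± 0.38 in miR-423-3p, 0.66 ± 0.33 in miR-140-3p and 2.85 ± 0.86 in miR-378b (log2), with edgeR adjusted p of 0.287, 0.448 and 0.0788.

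A further set of abundant miRNAs separated the groups at 12 mo without a call in the main comparison. Of the 7 alternative settings, 4 left miR-191a-5p uncalled and 6 left miR-151-5p uncalled, and the rest called them. All 7 left miR-320-3p uncalled. miR-191a-5p, widely expressed and one of the most abundant serum miRNAs here, was at 107800, 226933, 219720 and 92649 CPM in Pb and at 33943, 29562, 12530 and 12299 in Ta. The log2 difference was 2.87 ± 0.90 (edgeR adjusted p = 0.072), and no libraries overlapped. Against the other metals, whose median was 126134 CPM, the Pb difference in miR-191a-5p was -0.04 ± 0.64 (log2), and Ta had the lowest mean of 8. miR-423-5p was at 4713, 5184, 7199 and 5103 CPM in Pb and at 2500, 453, 971 and 1971 in Ta, a log2 difference of 1.91 ± 0.61 (adjusted p = 0.0738). miR-151-5p (1.72 ± 0.51) and miR-320-3p (1.89 ± 0.57), which is made without DROSHA, were also higher in every Pb library than in every Ta library, each with an adjusted p of 0.072.

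Among those lower in Pb at 12 mo, miR-125b-5p, a homologue of lin-4, was at 3210, 5593, 2374 and 2030 CPM in Pb and at 6629, 7675, 10030 and 25232 in Ta. The groups did not overlap, and the log2 difference was -1.91 ± 0.59 (edgeR adjusted p = 0.072). miR-30e-5p was at 443, 500, 77.3 and 135 CPM in Pb and at 1713, 1461, 1531 and 461 in Ta, overlapping by 1 library, with -2.16 ± 0.59 and an adjusted p of 0.052. With DESeq2 size factors both passed (adjusted p = 0.0305 each), so that the calls were 3 higher and 2 lower in place of 3 and 0. miR-144-3p, transcribed with miR-451 in red cell precursors, differed by -2.20 ± 0.74 (adjusted p = 0.0943), and miR-450a-5p was in 0 of 4 Pb and 3 of 4 Ta libraries (at least 43.8-fold lower, with an edgeR adjusted p of 0.072). In all, 19 of 242 miRNAs had no overlap (7.85%), 16 higher (6.61%) and 3 lower (1.24%) in Pb.

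The muscle miRNAs lay the other way at 12 mo from 3 mo. miR-1-3p was at 136, 27.3, 378 and 151 CPM in Pb and at 14021, 1157, 0 and 438 in Ta. The groups overlapped, with 1 very high Ta library, and the log2 difference was -4.49 ± 1.67 (edgeR adjusted p = 0.111). miR-133a-3p, which is transcribed together with miR-1, had no count in 4 Pb libraries and 1219 and 268 CPM in 2 of 4 Ta libraries, at least 278-fold lower than in Ta and at least 66.8-fold without Ta replicate 1. Its edgeR adjusted p was 0.072, and DESeq2 called it (1.8e-15). The 5 muscle miRNAs tested were all lower in Pb by fitted value under both scalings. edgeR called 0 of them, and 3 had an unadjusted p under 0.05, against 5.37% of all 242 miRNAs in that direction. DESeq2 also called miR-1-3p (adjusted p = 0.0206), as did edgeR without the low-count filter (4.3e-06). The list summed to 0.0098% to 0.507% of a Pb library (median 0.104%) and 0.0995% to 2.27% of a Ta library (median 0.294%).

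The miR-30 family also lay the other way at 12 mo: 4 of 4 were lower in Pb by fitted value under both scalings, edgeR called 0, DESeq2 called miR-30e-5p (adjusted p = 0.00034) and miR-30d-5p (0.045), and 2 had an unadjusted p under 0.05, both lower; over all 242 miRNAs the share was 20.7%, 15.3% higher and 5.37% lower in Pb. Their median log2 difference was -1.07, against 0.31 over all 242 miRNAs. miR-30d-5p was at 2785, 3279, 2205 and 2980 CPM in Pb and 3115, 3413, 4635 and 4675 in Ta at 12 mo. At 3 mo it had been at 14625, 6732, 18632 and 7376 in Pb and 10065, 9257 and 4433 in Ta. The groups overlapped at both months, with log2 differences of 0.58 ± 0.62 at 3 mo and -0.49 ± 0.38 at 12 mo.

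Whether the Pb against Ta difference was the same at the 3 months was tested directly, and 2 of 295 miRNAs were called (0.678%). miR-30d-5p changed from 1.71 at 1 mo to -0.49 at 12 mo, with an edgeR adjusted p of 0.0337. miR-378b, with 5.7, 50.5, 25.1 and 43.6 CPM in Ta and 0, 0, 0 and 1.1 in Pb at 1 mo, was then high in Ta and at 12 mo high in Pb, with an adjusted p of 0.0253; it had too few counts to be tested alone at 3 mo. Its 4 Ta libraries at 1 mo lay above all 27 libraries of the other metals, of which 5 had any count. With all libraries kept the adjusted p was 0.479 for miR-30d-5p and 0.0135 for miR-378b. Of the other alternatives, miR-30d-5p kept the call with DESeq2 (3.2e-05) and the red cell covariate (0.0359) and lost it with DESeq2 size factors (0.0832), the replicate block (0.0523), only Pb and Ta fitted (0.226) and no filter (0.965). miR-378b lost it with only Pb and Ta fitted (0.114) and no filter (0.0664). Both calls depended on single libraries. For miR-30d-5p, leaving out 15 of the 23 libraries in turn ended the call (adjusted p up to 0.131, without Pb replicate 3 at 12 mo); the exceptions were Ta replicates 1 and 4 at 1 mo, the 4 Pb libraries at 3 mo and Ta replicates 1 and 2 at 12 mo. For miR-378b, 5 did, Pb replicates 1, 2 and 3 at 1 mo (0.0756, 0.0775 and 0.0775), Pb replicate 2 (0.0594) and Ta replicate 4 (0.0508) at 12 mo. Of the 2 calls, 1 was shared with DESeq2, which called 11. DESeq2 gave no adjusted p for 184 of the 295 miRNAs, miR-378b among them.

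In the average over 1, 3 and 12 mo edgeR called no miRNA and DESeq2 called 30, 17 higher and 13 lower in Pb, and the smallest p values belonged to miRNAs of few counts. miR-702-3p was counted in 6 of 12 Pb and 0 of 11 Ta libraries. At 1 mo its Pb libraries were at 29.8, 0, 3.73 and 49 CPM and at 12 mo at 5.25, 0, 145 and 0. It was in 3 of 4 Pb libraries at 1 mo, 1 of 4 at 3 mo and 2 of 4 at 12 mo, and its edgeR adjusted p was 0.198 (9.3e-11 with DESeq2). miR-23b-5p was in 6 of 12 Pb and 1 of 11 Ta libraries, and miR-200c-3p, an epithelial miRNA, in 5 and 1. Lower in Pb were miR-32-5p (1 of 12 and 3 of 11), miR-450a-5p (4 and 8), miR-122-3p (4 and 7) and miR-365-3p (4 and 7), with adjusted p from 0.198 to 0.428.

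Among abundant miRNAs, miR-423-3p and miR-423-5p were counted in all 23 libraries and were higher in Pb by 1.11 ± 0.51 and 0.78 ± 0.35 in the average (log2, edgeR adjusted p = 0.475 each). miR-423-3p was higher by fitted value at each month (0.77, 0.49 and 2.48), while miR-423-5p was 1.46, -0.74 and 1.91. miR-30d-5p had 0.47 ± 0.24 (adjusted p = 0.57). The miRNAs followed for tissue damage and stress had these average differences, none called by edgeR: miR-1-3p 0.43 ± 1.14, miR-206-3p 0.30 ± 0.86, miR-122-5p 0.18 ± 0.47, miR-451-5p -0.37 ± 0.49 and miR-21-5p, which rises in inflammation and fibrosis, 0.14 ± 0.28. miR-146a-5p, a brake on NF-kB signalling, had -0.27 ± 0.56, and miR-223-3p, of myeloid cells, -0.10 ± 0.46. With all libraries kept the average was -1.64 for miR-451-5p, -2.13 for miR-16-5p (-0.03 without the near-empty Ta library) and -1.37 for miR-146a-5p, with edgeR adjusted p of 0.139, 0.113 and 0.357. miR-34a-5p, a p53 target, was in 1 of 12 Pb and 2 of 11 Ta libraries. miR-210-3p, induced in hypoxia, was tested at 1 mo only, where it was in 1 of 4 and 1 of 4.

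In the comparisons with the other metals Ta had no weight, but its libraries stayed in the filter, the scaling and the spread. At 3 mo edgeR called 0 (0%), 16 had an unadjusted p under 0.05 (8.89%), and DESeq2 called 1. Pb had 2 edgeR calls at 1 mo, 4 at 12 mo (1.65%) and 6 in the average (2.03%), all higher in Pb. Most of these edgeR calls rested on few libraries. At 1 mo the second call, miR-411-5p, was in 2 of 4 Pb libraries at 36 and 7.5 CPM, in 0 of 4 Ta and in 6 of 27 libraries of the other metals (edgeR adjusted p = 0.0421, and 0.0675 and 0.0714 without Pb replicate 2 or 3). At 12 mo miR-598-3p, miR-9a-5p and miR-350 were counted in Pb replicate 4 only, at 194, 94.5 and 368 CPM, and miR-542-3p in Pb replicate 3 only, at 1290 CPM. Without Pb replicate 4 that comparison had 0 calls. miR-542-3p also lost its call without Pb replicate 2 (edgeR adjusted p = 0.0835). Without Pb replicate 3, the only Pb library with counts of it, its log2 difference turned to -5.21 and the call was lost.

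In the average, miR-702-3p differed from the other metals by 3.16 ± 0.75 (log2, edgeR adjusted p = 0.0285), and miR-139-3p, miR-211-3p, miR-532-5p, miR-23b-5p and miR-541-5p had adjusted p of 0.0473 to 0.0478. miR-702-3p lost its call without Pb replicate 3 at 12 mo (0.207) and without Pb replicate 2 at 3 mo (1), where 0 were called. Each of the other 5 lost its call without Pb replicate 2 or 3 at 1 mo or Pb replicate 2 at 3 mo. Each also lost it without Pb replicate 1, 2 or 4 at 12 mo. Each of these 6 libraries left 0 or 1 calls. miR-23b-5p, miR-532-5p, miR-139-3p and miR-541-5p lost the call without 1 more library, and miR-211-3p did not. Where a call was lost, the edgeR adjusted p ran from 0.0502 to 1. Leaving the Ta libraries out of the fit, which changes the filter and the spread but not the contrast, also left 0 calls in the average and at 12 mo.

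Lists of miRNAs by tissue and process covered 133 names in 18 lists, of which 124 were in the table. Beside miR-30d-5p at 1 mo and miR-140-3p at 12 mo, edgeR called no member of any list at any month or in the average. miR-30d-5p is on the kidney and miR-30 lists, and miR-140-3p on the bone and cartilage list. DESeq2 called more, among them miR-200c-3p (adjusted p = 9.3e-11) and miR-122-3p (5.1e-06) in the average. DESeq2 also called miR-133a-3p at each month and in the average, but higher in Pb at 1 and 3 mo and lower at 12 mo. miR-133a-3p was counted in 2 of 4 Pb and 0 of 4 Ta libraries at 1 mo. The numbers were 1 of 4 and 0 of 3 at 3 mo, and 0 of 4 and 2 of 4 at 12 mo. At 1 mo, 3 of 11 kidney members had an unadjusted p under 0.05, all of them miR-30 members higher in Pb. Of all miRNAs, 9% did in that direction and 16.6% in either. At 12 mo 2 of 11 kidney members had, both lower in Pb, against 5.37% of all miRNAs in that direction and 20.7% in either. The kidney list's median was 0.16 at 1 mo and -1.02 at 12 mo. Its summed share was 13% to 40.7% in Pb and 17.2% to 52.5% in Ta at 1 mo. At 12 mo it was 11.8% to 21.4% in Pb and 22.4% to 36.2% in Ta, without overlap. The sums of the inflammation and miR-30 lists did not overlap at 12 mo either, 3 of 18 lists (16.7%), all lower in Pb; at 1 mo only the miR-30 list, higher in Pb, had no overlap (5.56%), and at 3 mo none (0%). The kidney and miR-30 lists share members. The miR-30 sum at 12 mo was 0.47% to 0.65% in Pb and 1.04% to 1.57% in Ta. Another kidney list member, miR-10a-5p, was at 60372 ± 57267 CPM in Pb and 122438 ± 41942 in Ta at 12 mo (SD, n = 4 each).

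The red cell list had a median log2 difference of -0.16, -0.04 and -0.48 at 1, 3 and 12 mo over 9 members, and its summed share overlapped between the metals at every month, for example 2.52% to 5.13% in Pb and 3.67% to 4.30% in Ta at 3 mo. The liver list summed to 2.37% to 11% in Pb and 3.71% to 18.2% in Ta at 1 mo. In Ta replicate 2 at 1 mo its member miR-192-5p alone held 16.6% of the counts. At 12 mo the list summed to 14.4% to 32.1% in Pb and 12.6% to 31.6% in Ta. For the leukocyte, let-7 and p53-induced lists, 0 members had an unadjusted edgeR p under 0.05 at any month, with up to 9 members tested in each. Over all miRNAs tested the shares were 16.6%, 1.67% and 20.7% at 1, 3 and 12 mo. For 13 of the 18 lists the count of members higher or lower in Pb changed with the scaling in 1 comparison or more; for the miR-30 and muscle lists it did not.

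**Figure D5:**
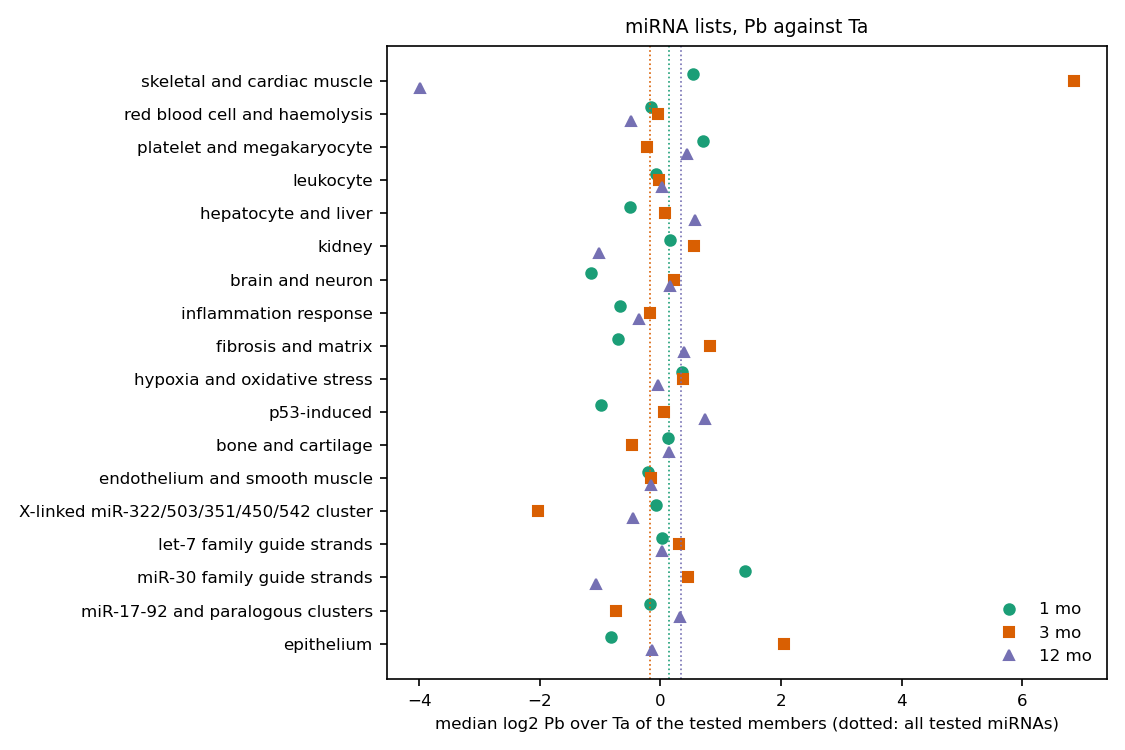
Median log2 difference Pb over Ta of the tested members of each of 18 lists at 1 mo (circles), 3 mo (squares) and 12 mo (triangles), with miRNAs without counts in a group set at their bound; dotted lines are the medians of all tested miRNAs (0.15, -0.17 and 0.34). The muscle list lies at 6.86 at 3 mo and -3.99 at 12 mo, and the miR-30 list at 1.4 at 1 mo and -1.07 at 12 mo. At 3 mo the muscle list had 3 members tested. Its median there is the bound of miR-133a-3p, which was counted in 1 of 4 Pb libraries.

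The miRNAs called between Pb and Ta at 6 mo, when 4 Pb and 3 Ta libraries were compared, were looked at in the other months. There were 8: miR-322-3p, miR-126a-5p, miR-191a-3p, miR-29b-3p, miR-6216, miR-676, miR-15b-5p and miR-96-5p, each with no count in the 4 Pb libraries at 6 mo and counted in the 3 Ta libraries. In the other months 0 of 8 were called by edgeR. At 1 mo 5 were higher and 3 lower in Pb (median log2 difference 0.42), at 3 mo 2 and 6 (-1.08) and at 12 mo 5 and 3 (0.58), and 2, 0 and 2 of them had an unadjusted p under 0.05, against 16.6%, 1.67% and 20.7% of all miRNAs tested. miR-322-3p, of an X-linked cluster, was counted in 4 of 4 libraries of each metal at 1 mo, with a log2 difference of -0.20 ± 0.44, and was at 4909, 2806, 5128 and 1203 CPM in Pb and 957, 1463, 1097 and 1635 in Ta at 12 mo. miR-191a-3p, at 1 mo, was at 717, 561, 368 and 332 CPM in Pb and 115, 132, 75.4 and 261 in Ta. It was higher in every Pb library, with a log2 difference of 1.77 ± 0.76 (edgeR adjusted p = 0.297). Of all miRNAs tested at 1 mo, 3.81% had no overlap in either direction. At 3 and 12 mo miR-191a-3p differed by -3.08 ± 3.47 and -0.08 ± 0.96. miR-29b-3p also had an unadjusted p under 0.05 at 1 mo and was lower in Pb, by -1.25 ± 0.56 (edgeR adjusted p = 0.297).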

How the data were processed

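The deposited table held raw counts of 471 mature miRNAs in 138 serum libraries. Per the labels' protocols, small RNA libraries were made with a Norgen kit and sequenced on a NextSeq 500; per the submitters' processing notes the build was Rnor_6.0. Aligner, counter and miRBase version were not given in the sources used here. Genome coordinates were not used.

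The counts were analysed in R 4.3.3 with edgeR 4.0.16: filterByExpr (minimum count 10, minimum total 15), TMM scaling, and glmQLFit and glmQLFTest with 1 mean for each metal and month, all metals of a month fitted together, libraries under 20000 counts left out. DESeq2 1.42.0 was an alternative. The average gave equal weight to 3 months. SE is the absolute log2 difference divided by the square root of F. CPM used TMM library sizes within a month. A group without counts was given a floor of 3 counts, summed over its libraries, for a bound on the fold; this covers counting error only. The models were tested on simulated data.

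The members, the lists and the miRNAs named were chosen with earlier results of these data known. Named were called miRNAs, the 5 smallest p in each direction at each month and the 10 in each direction in the average (those described here are a part of the last), list members, the 6 mo calls and 15 miRNAs of general interest. miR-191a-3p, miR-423-3p at 1 mo and miR-378b at 1 mo are given as members of these sets in other comparisons. miR-378a-3p is given for the name it shares with miR-378b. Alternatives were all libraries kept, DESeq2 size factors, no filter, DESeq2, a replicate block, the red cell index as covariate, only Pb and Ta fitted (or Ta left out), and leaving out each library in turn. Deviations of Pb and Ta libraries with the same number correlated at -0.09 to 0.21, so the numbers were not taken as pairs.

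Bounds without the highest library were added after the data were seen.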

Additional observations from a re-analysis of the deposited data

Results flagged for a closer look

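The red cell index of Pb replicate 3 at 3 mo, 8.16 as the log2 ratio of miR-451-5p to miR-23a-3p, lay far from the other 3 libraries of its group by Dixon's gap. It was the only 1 of 41 sets of values examined this way that did, and chance gives about 1 in 20. The library had the lowest total of the Pb and Ta libraries kept, 70454 counts. Without it 0 miRNAs were called at 3 mo by edgeR, as with it.

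The Pb against Ta difference changed between 1, 3 and 12 mo for miR-378b (edgeR adjusted p = 0.0253) and for miR-30d-5p (adjusted p = 0.0337), by the test of the 3 monthly differences against each other. With all libraries kept, miR-30d-5p lost this call (0.479). It also lost it when any of 15 of the 23 libraries was left out, and miR-378b when any of 5 was.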

How the results depend on the processing

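The counts of calls, main first, were as follows. Pb against Ta at 1 mo had 1 call, 0 without a low-count filter or with only Pb and Ta fitted, 2 with the red cell covariate and 11 with DESeq2. At 3 mo it had 0 by edgeR (3 with an unadjusted p under 0.05), 1 without the filter and 5 with DESeq2. At 12 mo it had 3, 0 with all libraries kept or only Pb and Ta fitted, 5 with DESeq2 size factors, 10 without the filter (5 higher, 5 lower; 1 of the 3 kept) and 24 with DESeq2 (12 and 12). The average had 0 by edgeR and 30 with DESeq2. The change between months had 2, 4 with all libraries, 1 with DESeq2 size factors, 6 without the filter (0 of the 2 kept), 11 with DESeq2 and 4 with the covariate. Against the other metals at 1 mo there were 2 calls, 1 with all libraries, 15 without the filter, 13 with DESeq2 (1 higher, 12 lower) and 1 without Ta in the fit. At 3 mo there were 0, 23 without the filter, 1 with DESeq2 and 2 with the covariate. At 12 mo there were 4, 0 with all libraries, 14 without the filter, 3 lower ones with DESeq2, 2 with the covariate and 0 without Ta in the fit. The average had 6, 1 with DESeq2 size factors, 33 with DESeq2 and 0 without Ta in the fit. The causes were not tested.

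With 1 library left out, the calls ranged from 1 to 2 for the first month, 0 to 0 for month 3, 0 to 3 for month 12 (2 lower ones and none of the main 3 without Ta replicate 1), 0 to 0 in the average and 0 to 3 for the change, and against the other metals from 0 to 3, 0 to 0, 0 to 4 and 0 to 7 in the average. The difference in miRNAs detected at 3 mo ranged from -49.75 to 7.25, at 1 mo from 15.3 to 48.6 and at 12 mo from 3.17 to 34.5; with all libraries kept it was 5.75 at 3 mo.

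With the replicate number as a block the calls were 1, 0 and 4 at 1, 3 and 12 mo, 0 in the average, 1 for the change, and 1, 0, 0 and 4 against the other metals. The numbers share only a name: 2 of 11 Pb libraries correlated best with the Ta library of their own number. Under the block the sign turned for miR-146a-5p (0.18) and miR-10a-5p (0.30) at 1 mo and miR-16-5p (-0.20) at 3 mo.

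Signs turned elsewhere for values close to 0 against their error. These were, as log2 differences, miR-146a-5p at 1 mo (0.052 with all libraries, 0.19 with the covariate), miR-10a-5p at 1 mo (0.64 with the covariate) and in the average (0.0065 with all libraries), miR-21-5p at 1 mo (-0.080 with DESeq2 size factors, -0.081 with DESeq2) and at 12 mo (-0.028 with all libraries, -0.24 with DESeq2 size factors and DESeq2, -0.11 without the filter, -0.058 with only Pb and Ta), miR-16-5p at 3 mo (-5.31 with all libraries, -0.16 with DESeq2 size factors, DESeq2 and the covariate, -0.047 with only Pb and Ta) and in the average (0.16 without the filter, 0.031 with only Pb and Ta), and miR-223-3p in the average (0.056 without the filter).

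With 1 library left out, ranges crossed 0 at 1 mo for miR-146a-5p (-0.51 to 0.49), miR-210-3p (-3.72 to 5.14), miR-451-5p (-0.062 to 1.18), miR-322-3p (-0.43 to 0.066), miR-206-3p (-1.35 to 0.41), miR-16-5p (-0.52 to 0.16), miR-122-5p (-1.14 to 0.29) and miR-10a-5p (-0.63 to 0.83). At 3 mo they did for miR-146a-5p (-0.62 to 0.39), miR-122-5p (-0.32 to 2.71), miR-16-5p (-0.97 to 0.97) and miR-451-5p (-0.98 to 0.43), and at 12 mo for miR-21-5p (-0.46 to 0.50), miR-16-5p (-0.14 to 0.44), miR-122-5p (-0.13 to 0.86), miR-146a-5p (-1.14 to 0.21) and miR-223-3p (-1.0 to 0.036). In the average they did for miR-122-5p (-0.11 to 0.78), miR-16-5p (-0.22 to 0.38), miR-223-3p (-0.33 to 0.13), miR-10a-5p (-0.39 to 0.33), miR-133a-3p (-1.61 to 2.16), miR-122-3p (-4.38 to 0.087), miR-322-3p (-1.02 to 0.015), miR-146a-5p (-0.46 to 0.17) and miR-206-3p (-0.086 to 0.75). Against the other metals they did for miR-542-3p at 12 mo (-5.21 to 6.09) and in the average for miR-139-3p (-0.25 to 2.88) and miR-541-5p (-0.26 to 2.43). Of the single miRNAs' values under the other settings, 647 kept direction and side of the threshold, 53 lost and 38 gained a call, and 22 turned sign. Depth limits low miRNAs most at 3 mo, where 1 count in the smallest library kept is 1 of 70454.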
